A study of Rattus norvegicus with 8 samples.

Results

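Gene expression and 2 histone marks were examined at 10 transcription factor genes of the vascular mesenchyme, Gata6, Mef2a, Mef2c, Mef2d, Foxc1, Foxc2, Foxf1, Prrx1, Twist1 and Tcf21. Members were chosen by name, with earlier results of these data known. A gene was measured when a locus of the RNA table carried RefSeq accessions that mapped to that symbol alone, and the locus with the highest mean level stood for it. This gave 5 of the 10 genes, of 14767 symbols with a usable locus: Twist1, Tcf21, Gata6, Prrx1 and Mef2d. No locus was matched to Mef2a, Mef2c, Foxc1, Foxc2 or Foxf1, and RNA and histone marks of these 5 were not analysed here. Mef2a and Foxc1 enter only by their promoter sequence.

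Cultured primary vascular smooth muscle cells, taken from Sprague-Dawley rat thoracic aorta and grown with serum, were studied in 2 states. One group had been deprived of serum overnight and then received AngII (angiotensin II, a vasoconstrictor hormone) at 0.1 uM for 3 h. The control group had no treatment according to the labels, which do not say whether it was also deprived of serum, so serum deprivation and AngII cannot be told apart. Each group had 1 library for RNA-seq and 1 for ChIP-seq of either histone mark, and the labels do not say how many animals or cultures went into a library. The series compared these states for RNA, with an interest in long non-coding RNAs. Without replicates there was no test, and no difference below has a replicate check.

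The factors belong to families that build and maintain the vessel wall. Basic helix-loop-helix factors such as Twist1 and Tcf21 bind E-boxes as dimers with E proteins, and Id proteins block them by taking up the partner. Gata6 is the zinc-finger GATA factor best known in vascular smooth muscle, Prrx1 is a paired-related homeobox factor of mesenchymal cells, and MEF2 proteins are MADS-box factors that class IIa histone deacetylases hold in check until calcium signals release them. H3K4me3 marks active and poised promoters, and H3K36me3 marks transcribed gene bodies.

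Promoter sequence of Twist1, Gata6, Prrx1 and Tcf21 is shown first. Each stretch is the 250 bases before the gene start, read 5′ to 3′ on the gene's strand from RefSeq, build GRCr8, which is not the build of the deposited files. Of the 10 genes 7 had an entry. Capitals mark matches to a CCAAT box, to a TATA motif (TATAAG), to a GATA motif (GATAA) or to the MEF2 site. The first is Twist1 (chr6:56402059-56402308, plus strand), the second Gata6 (chr18:2460659-2460908, plus strand), the third Prrx1 (chr13:78204074-78204323, minus strand) and the last Tcf21 (chr1:24520249-24520498, plus strand).
Twist1: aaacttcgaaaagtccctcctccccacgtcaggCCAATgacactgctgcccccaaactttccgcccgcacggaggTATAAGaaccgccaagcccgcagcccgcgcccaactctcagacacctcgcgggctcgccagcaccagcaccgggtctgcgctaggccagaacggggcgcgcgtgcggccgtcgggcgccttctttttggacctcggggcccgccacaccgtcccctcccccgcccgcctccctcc
Gata6: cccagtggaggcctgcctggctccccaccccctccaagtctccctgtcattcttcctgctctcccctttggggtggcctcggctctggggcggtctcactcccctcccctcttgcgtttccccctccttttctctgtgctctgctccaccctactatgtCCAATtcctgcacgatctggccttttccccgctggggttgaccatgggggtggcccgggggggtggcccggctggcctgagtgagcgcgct
Prrx1: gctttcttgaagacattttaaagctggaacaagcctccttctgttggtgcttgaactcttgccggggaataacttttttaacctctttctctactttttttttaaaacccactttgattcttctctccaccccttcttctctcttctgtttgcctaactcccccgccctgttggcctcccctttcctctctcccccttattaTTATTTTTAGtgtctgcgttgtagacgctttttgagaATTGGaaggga
Tcf21: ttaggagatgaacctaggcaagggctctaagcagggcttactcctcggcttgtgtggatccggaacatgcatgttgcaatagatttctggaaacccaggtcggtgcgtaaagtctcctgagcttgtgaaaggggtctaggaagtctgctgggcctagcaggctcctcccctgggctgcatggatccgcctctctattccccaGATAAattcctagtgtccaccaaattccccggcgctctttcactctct

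These stretches differed in base composition. The Twist1 stretch held 27 CpG dinucleotides at 69.2% G and C, and the Mef2d stretch held 18 at 73.2%. The Gata6 stretch held 9 at 66.0%, the Tcf21 stretch 7 at 53.6% and the Prrx1 stretch 4 at 43.2%, beside medians of 6 and 52.0% over 27457 promoters. A MEF2 site, searched on both strands like every motif here, began at -48 from the start in Prrx1 and at -40 in Mef2a, and 3.07% of all promoters held this motif. CCAAT was found in Twist1, Gata6, Prrx1, Mef2d and Foxc1 (34.3% of all promoters), TATAAG in Twist1 alone of the 7 at -175 (7.05%) and GATAA in Tcf21 alone of the 7 at -48 (23.2%). An E-box (CANNTG) was in 0 of the 7 stretches, against 65.2% of all promoters, and 0 of the 7 held an AP-1 motif (TGANTCA, 6.36% of all promoters), a forkhead motif (TGTTTAC, 3.25%), a homeobox motif (TAATTA, 4.94%) or the CArG box. The found motifs did not overlap each other. These are matches of letters in short windows and say nothing of whether a factor binds.

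Twist1 was the member with the largest difference. RNA levels are in FPKM, fragments scaled to transcript length and library size, which the authors deposited with lower and upper bounds that lie 2 SD either side. Twist1 stood at 43.7 FPKM in AngII-treated cells (bounds 25.5 to 61.9) and 18.6 FPKM in control cells (10.5 to 26.7). The ratio of the levels was 2.35, and the log2 ratio, taken as log2((AngII FPKM + 1)/(control FPKM + 1)), was 1.19. The bounds of the libraries overlapped narrowly, since the lower bound after AngII lay under the upper bound in control. Among expressed genes, those at 1 FPKM or more in at least 1 library, Twist1 lay at percentile 83.2 of the levels in AngII-treated cells and 61.6 in control cells.

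Twist1 has 3 matched loci, and the level above comes from the main one on chromosome 6 (52605687 to 52607862, rn4). A second piece (52607970 to 52608909) stood at 0.760 FPKM in AngII-treated cells and 0.510 FPKM in control cells. The third piece (52609061 to 52610547) stood at 0.682 FPKM in AngII-treated cells and 0.509 FPKM in control cells. Both pieces were far below the main locus and were also higher in the AngII library, with bounds that overlapped.

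Tcf21, a factor of epicardial and adventitial progenitors, was listed at 0 FPKM in AngII-treated and in control cells, at a locus on chromosome 1 (23211053 to 23213905). No fold is given for it. It was the only member with a locus under the expression minimum.

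Gata6 was lower after AngII. It stood at 18.9 FPKM in AngII-treated cells (10.7 to 27.1) and 31.8 FPKM in control cells (18.4 to 45.3) at its locus on chromosome 18 (2504263 to 2534648). The log2 ratio was -0.72, short of 2-fold, and the bounds overlapped. Its level was at percentile 64.1 of expressed genes in AngII-treated cells and 76.2 in control cells.

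Prrx1 was also lower. It stood at 32.9 FPKM in AngII-treated cells (19.1 to 46.8) and 46.7 FPKM in control cells (27.3 to 66.2) on chromosome 13 (78961647 to 79028881). The log2 ratio of -0.49 was close to the lower quartile of all expressed genes, which was -0.46.

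Mef2d was slightly higher after AngII. It stood at 16.2 FPKM in AngII-treated cells (10.1 to 22.3) and 13.2 FPKM in control cells (8.25 to 18.2) on chromosome 2 (180221077 to 180250441), a log2 ratio of 0.27. Of the expressed members it was the nearest to 0 on the deposited scale, but with AngII values centred on the median locus it lay at 0.53 and Prrx1 was the nearest, at -0.22. The bounds overlapped over most of their length.

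Of the 4 expressed members 1 was at least 2-fold higher after AngII, where 3.89% of 8354 expressed genes were, and 0 were at least 2-fold lower, where 2.96% were. With bounds apart as well, 0 members were higher (2.71% of expressed genes) and 0 lower (1.58%). The median log2 ratio of the 4 was -0.11, beside -0.22 over all expressed genes (quartiles -0.46 and 0.08). With AngII values centred on the median locus, 491 expressed genes were at least 2-fold higher and 99 lower, where 325 and 247 were without centring; the members' counts stayed at 1 and 0, and their median was 0.16. Twist1 and Mef2d lay above 0, as did 30.0% of expressed genes (2510 of 8354, and 4453 with AngII values centred on the median locus). The summed level of the members was 112 FPKM in AngII-treated cells and 110.4 FPKM in control cells. These are levels of whole cultures, in which fewer cells with a transcript and less transcript per cell cannot be told apart.

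**Figure D1:**
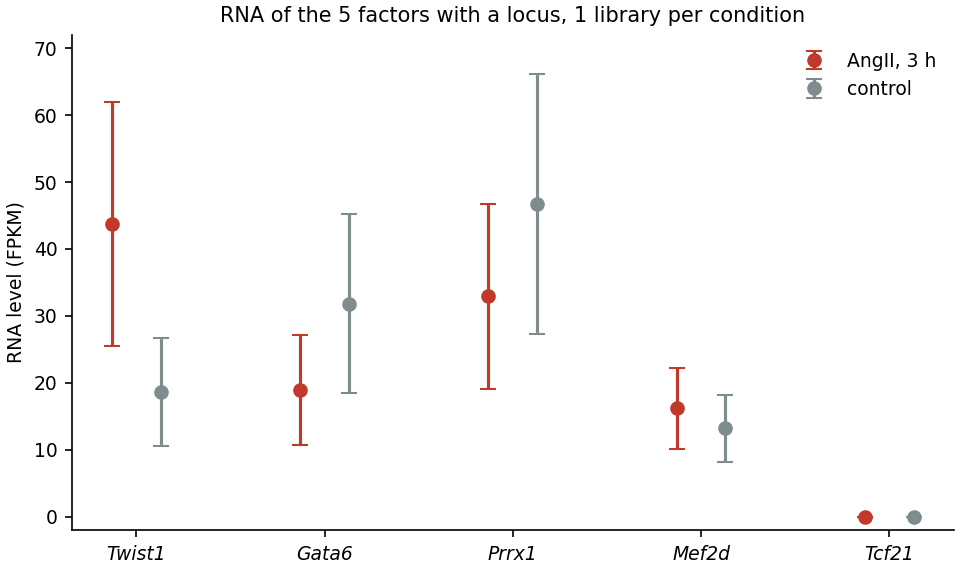
RNA level in FPKM (vertical axis) of the 5 factors with a locus, with AngII-treated cells left (red) and control cells right (grey) for each gene; points are single libraries and bars the authors' bounds. Twist1 stands at 43.7 FPKM after AngII and 18.6 FPKM in control, Gata6 and Prrx1 are lower after AngII with overlapping bars, and Tcf21 is at 0 in both.

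The order of the levels differed between the conditions. In AngII-treated cells it was Twist1, Prrx1, Gata6 and Mef2d, whereas in control cells it was Prrx1, Gata6, Twist1 and Mef2d. Twist1 was 2.31 times the level of Gata6 in AngII-treated cells, while in control cells Gata6 was 1.71 times the level of Twist1. The bounds of this pair overlapped in each library. In AngII-treated cells bounds were apart only between Twist1 and Mef2d, and in control cells for Prrx1 against Twist1, Prrx1 against Mef2d and Gata6 against Mef2d, so neighbours in either order did not differ beyond their bounds.

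H3K4me3 lay at the start of each expressed member in both conditions. A gene was counted as marked when a region of the authors' list lay within 1 kb of its locus. By this count 5 of 5 members had H3K4me3 after AngII and 5 of 5 in control, beside 96.3% of expressed genes in each condition. Counting only regions that touch the locus, the number was 4 in each condition, without Tcf21. The share of all expressed genes by this narrower count was not computed.

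The Gata6 region was the widest of the members. It spanned 20.5 kb in AngII-treated cells (2496099 to 2516578) and 22.0 kb in control cells (2496015 to 2518046), so it began at -8.16 kb after AngII and at -8.25 kb in control from the lower end of the locus. That end is the start of the gene on its GRCr8 strand; whether the listed rn4 loci have the same orientation was not checked, here or for the other genes. Among expressed genes with coordinates of their own and H3K4me3, the widest region of a gene had a median of 4.32 kb after AngII and 4.13 kb in control, and Gata6 lay at percentile 98.8 of 6143 and 98.9 of 6141 such genes.

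Mef2d came next. Its region spanned 15.0 kb in AngII-treated cells (180215565 to 180230604) and 14.8 kb in control cells (180215857 to 180230697), at percentiles 96.5 and 96.8. It lay at the lower end of the locus, the start of the gene on the plus strand. The region of Prrx1 lay at the upper end of the locus, which is its start on the minus strand, and spanned 6.08 kb in AngII-treated cells and 6.73 kb in control cells, at percentiles 75.8 and 81.9.

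Twist1, with the larger RNA level after AngII, had no wider region there. Its H3K4me3 region covered the whole locus and spanned 4.96 kb in AngII-treated cells (52604288 to 52609247) and 5.81 kb in control cells (52603831 to 52609644). The score that the authors gave each region placed it at percentile 93.2 of the AngII list and 83.2 of the control list. Regions are built from bins of 160 bp in the AngII list and 153 bp in the control list, so widths are coarse, and scores were read only as ranks within a list of their own.

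**Figure D2:**
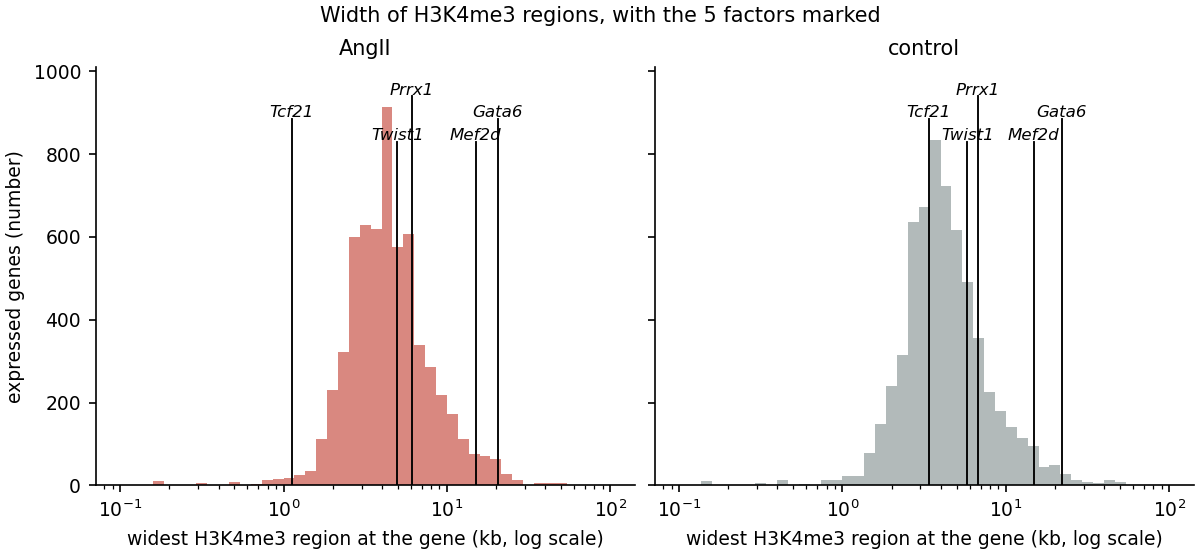
Number of expressed genes with coordinates of their own (vertical axis) by the width of their widest H3K4me3 region (horizontal axis, kb, log scale), in AngII-treated cells (left) and control cells (right); vertical lines mark the 5 factors. Gata6 at 20.5 kb after AngII and 22.0 kb in control and Mef2d at 15.0 kb and 14.8 kb lie in the upper tail, and Twist1 and Prrx1 lie nearer the median.

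Smaller H3K4me3 regions lay inside or beside the loci in both conditions. Gata6 held one of 2.56 kb in AngII-treated cells and 1.53 kb in control cells within its body. Prrx1 held 3 within its body in control cells, and in AngII-treated cells regions overlapped each of these and 1 further region of 0.320 kb lay 4.29 kb from the lower end. The middle one spanned 3.84 kb in AngII-treated cells and 1.53 kb in control cells, with scores at percentiles 19.9 and 14.0 of their lists. Twist1 had a second region 6.19 kb beyond its upper end in AngII-treated cells and 6.22 kb beyond it in control cells, of 2.88 kb and 2.91 kb. Mef2d had one of 4.48 kb in AngII-treated cells and 4.44 kb in control cells beyond its upper end.

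At Tcf21 the only H3K4me3 region within 10 kb lay beyond the upper end, 0.644 kb away and 1.12 kb wide in AngII-treated cells and 0.487 kb away and 3.37 kb wide in control cells. The lower end, the start of the gene on its GRCr8 strand, had none. These regions ranked at percentile 15.9 of the scores after AngII and 0.231 in control. Of 2770 genes listed at 0 in both libraries with coordinates of their own, 19.0% had H3K4me3 within 1 kb after AngII and 19.2% in control.

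H3K36me3 covered 100% of the locus of Twist1, Gata6, Prrx1 and Mef2d in both conditions and 0% of Tcf21. Touching regions were counted at 4 of 5 members in each condition, beside 97.5% of expressed genes after AngII and 95.6% in control, and beside 10.8% after AngII and 8.59% in control of the genes listed at 0. Cover of the whole locus was found at 61.0% of 6452 expressed genes with coordinates of their own after AngII and 59.8% in control. Over the 5 members the mean cover was 80.0% in each condition, from 4 loci at 100% and the unexpressed Tcf21 at 0%. Expressed genes with coordinates of their own had a mean cover of 90.1% after AngII and 86.3% in control. Twist1, whose RNA level differed most, was thus fully covered in both conditions.

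The H3K36me3 regions reached far past most of the loci. The region at Gata6 spanned 94.8 kb in AngII-treated cells and 71.9 kb in control cells, and that at Mef2d 117 kb and 128 kb. At Prrx1 a single region of 96.4 kb lay over the gene in AngII-treated cells. In control cells it was 81.9 kb, ended 0.03 kb past the upper end of the locus and was followed by another of 10.6 kb. The region at Twist1 was narrower, 8.22 kb in AngII-treated cells and 8.84 kb in control cells, and its score ranked at percentile 62.1 after AngII and 48.9 in control.

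**Figure D3:**
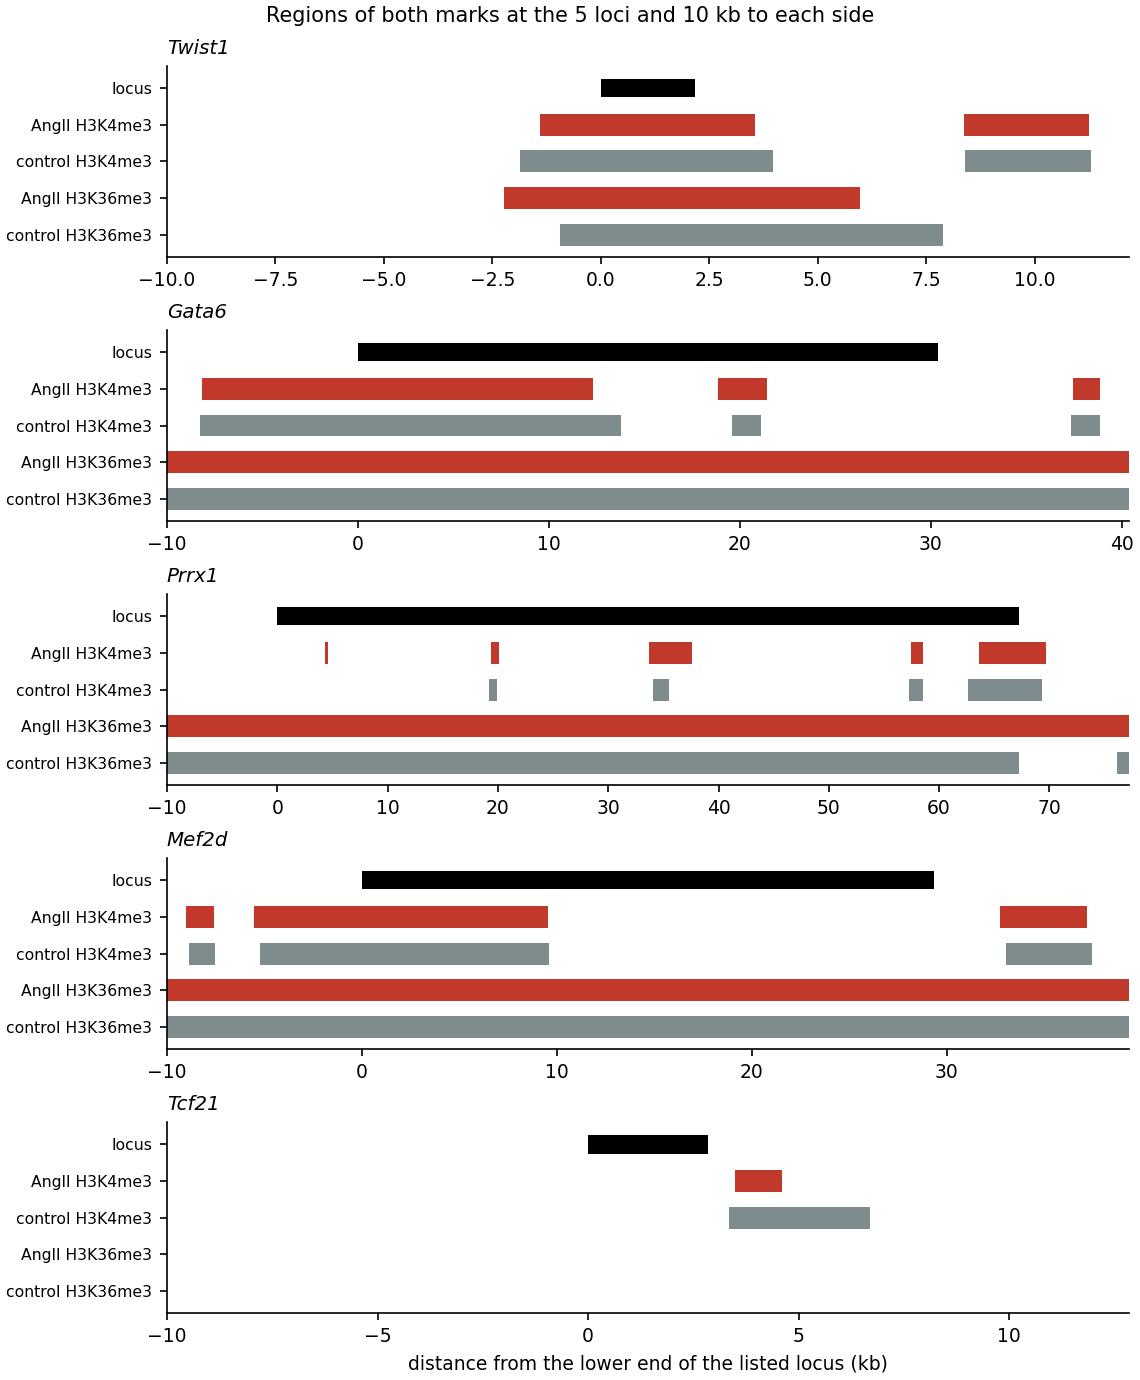
Regions of H3K4me3 and H3K36me3 in AngII-treated cells (red) and control cells (grey) at each locus (black) and 10 kb to each side, by distance in kb from the lower end of the listed locus; regions that run past the window are drawn to its edge. H3K4me3 at the gene start and H3K36me3 over the whole locus are present in both conditions at Twist1, Gata6, Prrx1 and Mef2d, and Tcf21 has only a region beyond its upper end.

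Transcripts beside the members were looked up within 100 kb. Below Gata6, 2.54 kb from its start, 5 unnamed pieces were listed at 1 interval (2490091 to 2501722). All 5 were lower after AngII, with a range of 0 to 0.317 FPKM in AngII-treated cells and 0.463 to 1.47 FPKM in control cells. Of all expressed genes 30.0% lay above 0. All pieces but XLOC_012656 and XLOC_012872 stayed under the minimum of 1 FPKM in both libraries. The piece with the highest level, XLOC_012656, stood at 0.317 FPKM in AngII-treated cells (0.0867 to 0.547) and 1.47 FPKM in control cells (0.819 to 2.11), with bounds apart. One more, XLOC_012871, was listed at 0 FPKM in AngII-treated cells and stood at 0.532 FPKM in control cells (0.0865 to 0.977). Its bounds were apart only because both AngII bounds were also listed at 0. The upstream end of the wide H3K4me3 region of Gata6 overlaps this interval, and pieces listed at one interval are not independent. Next to Mef2d, 0.063 kb away, 3 unnamed pieces shared an interval (180201146 to 180221014), with a sum of 9.33 FPKM in AngII-treated cells and 8.46 FPKM in control cells. Of these 1 was lower after AngII and the others were higher, and the bounds of each overlapped.

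The named neighbour of Twist1 on its upper side was Hdac9, a class IIa histone deacetylase that binds and represses MEF2 factors, 88.9 kb away (52696732 to 53283737). Hdac9 stood at 4.05 FPKM in AngII-treated cells (2.15 to 5.95) and 0.565 FPKM in control cells (0.218 to 0.912), a log2 ratio of 1.69 with bounds apart. Its H3K36me3 cover was 7.75% of the locus after AngII and 0.803% in control. On the lower side Ferd3l, 28.5 kb away, was listed at 0 in both libraries. Gorab, the named neighbour on the upper side of Prrx1, stood at 9.15 FPKM in AngII-treated cells and 9.45 FPKM in control cells.

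Related genes were taken from 6 lists, and up to 4 expressed members of each with the largest absolute log2 ratio are named. Among basic helix-loop-helix partners and inhibitors, 1 of 10 expressed genes passed 2-fold upwards, where 3.89% of all expressed genes did. Another 1 passed it downwards, where 2.96% did, and both had bounds apart. The median log2 ratio was -0.15, and 0.11 with AngII values centred on the median locus. Twist2, the close relative of Twist1, was the higher one at 10.2 FPKM in AngII-treated cells (5.41 to 15.1) and 2.83 FPKM in control cells (1.25 to 4.42), a log2 ratio of 1.55. With 5 added to each level in place of 1, 0 of the 10 were at least 2-fold higher, where 198 of 8354 expressed genes were. By that setting 1 of the 10 was at least 2-fold lower, where 50 expressed genes were. H3K36me3 covered 100% of the Twist2 locus after AngII and 18.1% in control. The dimerisation inhibitor Id2 was the lower one, at 2.93 FPKM in AngII-treated cells (1.19 to 4.67) and 12.3 FPKM in control cells (6.29 to 18.3), a log2 ratio of -1.76. At Id2 H3K36me3 cover did not fall with the RNA, at 100% after AngII and 93.0% in control. Id1, a relative of Id2, had a log2 ratio of -0.81 and the tendon factor Scx of -0.46, with overlapping bounds.

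The E proteins that partner Twist1 differed little. Tcf3 stood at 19.2 FPKM in AngII-treated cells and 19.6 FPKM in control cells, Tcf12 had a log2 ratio of -0.28 and Tcf4 of -0.32. The E proteins were picked out here with their values already known. Of the regulators of epithelial-mesenchymal transition, Snai1 had a log2 ratio of 0.58 and Zeb2 of -0.01. So 0 of 2 expressed genes were past 2-fold, where 3.89% of all expressed genes were higher and 2.96% lower.

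Among GATA factors and their cofactors 4 of 11 genes with a locus were expressed, and Gata6 was the only GATA factor with a locus above the minimum. Gata1, Gata2, Gata3, Gata4 and Gata5 stood at 0.835 FPKM or less in both libraries. Lmcd1, a LIM protein that in mouse restrains binding of Gata6 to DNA, stood at 649 FPKM in AngII-treated cells (342 to 956) and 268 FPKM in control cells (149.7 to 385), a log2 ratio of 1.28 with overlapping bounds. Trps1, an atypical GATA-type repressor, stood at 7.79 FPKM in AngII-treated cells (4.48 to 11.1) and 23.5 FPKM in control cells (13.8 to 33.3), a log2 ratio of -1.48 with bounds apart. The FOG cofactors Zfpm1 (0.92, at a shared interval) and Zfpm2 (-0.05) were within 2-fold on the FPKM + 1 scale. Zfpm1 stood at 2.89 FPKM in AngII-treated cells and 1.05 FPKM in control cells, with overlapping bounds. These levels were past 2-fold apart before 1 was added to each. The median log2 ratio of the 4 was 0.44. With AngII values centred on the median locus, 2 of the 4 were at least 2-fold higher, where 491 of 8354 expressed genes were. By that setting 1 was at least 2-fold lower, where 99 were.

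Of 13 expressed MEF2 cofactors and regulators Hdac9 alone was past 2-fold on the FPKM + 1 scale. It was higher, where 3.89% of all expressed genes were. The median log2 ratio of the 13 was 0.04. Next were the SRF coactivator Myocd (0.97), Srf itself (0.89, at an interval shared with other loci) and Hdac5 (0.83), another class IIa deacetylase. Myocd stood at 18.3 FPKM in AngII-treated cells and 8.81 FPKM in control cells, with overlapping bounds. These levels were past 2-fold apart before 1 was added to each. Hdac5 stood at 16.5 FPKM in AngII-treated cells and 8.87 FPKM in control cells, with overlapping bounds. With AngII values centred on the median locus, 4 of the 13 were past 2-fold upwards, where 491 of 8354 expressed genes were. With 5 added to each level in place of 1, 0 of the 13 were, where 198 expressed genes were.

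On the FPKM + 1 scale other forkhead factors had 1 of 10 expressed genes past 2-fold upwards, where 3.89% of all expressed genes were. The median log2 ratio of these factors was 0.32. Foxs1, a forkhead factor that in mouse marks perivascular cells, stood at 177 FPKM in AngII-treated cells (102 to 253) and 43.2 FPKM in control cells (25.2 to 61.2). The log2 ratio of 2.01 came with bounds apart and was higher than that of any member. Foxn3 (-0.90), Foxa2 (0.63) and Foxq1 (0.54, at a shared interval) were within 2-fold on that scale. Foxa2 stood at 2.06 FPKM in AngII-treated cells and 0.981 FPKM in control cells, with overlapping bounds. Its levels were past 2-fold apart before 1 was added to each.

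Of 8 expressed homeobox, T-box and epicardial factors 0 lay above 0, where 30.0% of all expressed genes did, and 4 were at least 2-fold lower, where 2.96% were. Of these 4, 3 had bounds apart, and the median log2 ratio of the list was -0.96, beside -0.22 over all expressed genes. The list was chosen with earlier results of these data known. With AngII values centred on the median locus 8 of 8 still lay below 0 and 2 were at least 2-fold lower, where 99 of 8354 expressed genes were. Nr2f2, a nuclear receptor of venous and mesenchymal cells, stood at 16.2 FPKM in AngII-treated cells (11.6 to 20.8) and 39.1 FPKM in control cells (28.5 to 49.7). Osr1, a zinc-finger factor of embryonic mesenchyme, stood at 102 FPKM in AngII-treated cells and 228 FPKM in control cells with overlapping bounds. Meox2, a homeobox gene known as a growth-arrest gene in rat smooth muscle, stood at 0.545 FPKM in AngII-treated cells and 3.18 FPKM in control cells, and the T-box factor Tbx18 had a log2 ratio of -1.91. The epicardial gene Wt1 stood at 0.0161 FPKM in AngII-treated cells and 0.0165 FPKM in control cells, near 0 like Tcf21.

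**Figure D4:**
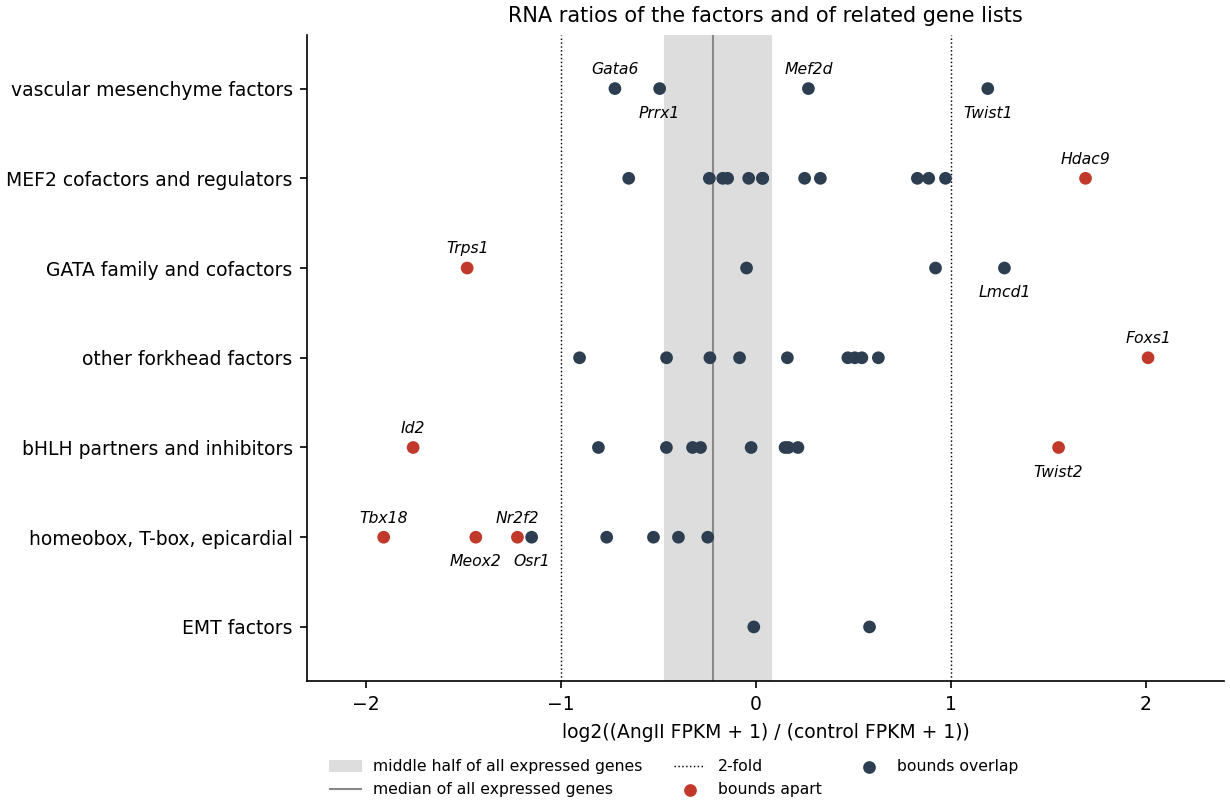
Log2 ratio of RNA level, AngII over control, on the FPKM + 1 scale (horizontal axis) for each expressed gene of the member list and 6 related lists (rows); red points have bounds apart, the grey band spans the quartiles of all expressed genes and dotted lines mark 2-fold. Twist1 lies past 2-fold with overlapping bounds, and the homeobox, T-box and epicardial factors all lie below 0.

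The label of the cells was checked against markers. Of 9 smooth muscle markers with a locus 8 were expressed, with summed levels of 6994 FPKM in AngII-treated cells and 7001 FPKM in control cells. Tagln (5244 FPKM after AngII and 5103 FPKM in control) and Cald1 (1130 FPKM and 1329 FPKM) made up most of each sum. Des was under the minimum (0.557 FPKM and 0.734 FPKM), and no locus was matched to Acta2. Adventitial fibroblast markers were present too, with 9 of 10 expressed and summed levels of 1402 FPKM in AngII-treated cells and 1913 FPKM in control cells. Most of each sum came from Col3a1 (641 FPKM after AngII and 982 FPKM in control) and Col1a1 (478 FPKM and 608 FPKM). Lum stood at 111 FPKM after AngII and 140 FPKM in control. Dpep1 (2.44 FPKM and 3.59 FPKM) and Pi16 (0.594 FPKM and 1.30 FPKM) were low, and Dcn was under the minimum (0.525 FPKM and 0.758 FPKM). Prrx1 and Twist1 are also known in fibroblasts, and the part of such cells in the values above was not tested. Endothelial, leukocyte and striated muscle markers summed to 12.4 FPKM or less per list in either library, with Tie1, Cldn5, Ptprc, Itgam and Cd3e listed at 0 in both. The 4 markers of these lists above the minimum were Cd14, at 6.77 FPKM in AngII-treated cells and 5.46 FPKM in control cells, Cd74, at 5.04 FPKM after AngII and 5.51 FPKM in control, Erg, at 2.12 FPKM after AngII and 2.21 FPKM in control, and Actn2, at 0.942 FPKM after AngII and 1.62 FPKM in control.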

How the data were processed

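RNA-seq and ChIP-seq of rat aortic smooth muscle cells were analysed from the deposited tables, with 6 of 8 samples; the 2 input libraries were not used here. RNA levels are FPKM values with bounds, deposited by the authors in 1 table for both conditions. The submitters' processing notes name Bowtie, TopHat, Cufflinks and Cuffdiff, with no version, and rn4. Ribosomal RNA was removed before library preparation, per the labels' protocols. Depth is unknown, with counting and strand settings not given in the sources used here. ChIP-seq lists give regions and a score per region deposited by the authors, who do not name a caller in the labels.

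Accessions were paired with symbols through a RefSeq table of GRCr8. Ratios used a pseudocount of 1, genes needed 1 FPKM in at least 1 library, and calls were a 2-fold ratio. H3K4me3 was counted within 1 kb of a locus and H3K36me3 cover as percent of the locus. With 1 library per group no test was run. All members were to be named, and of each related list up to 4 expressed genes with the largest absolute log2 ratio. The members and lists were chosen with earlier results of these data known. RNA coordinates are as listed and region starts are 1-based. Overlap steps were tested on simulated intervals (Python 3.11.15, pandas 2.3.3, numpy 2.4.6). The ratio step was run on deposited control levels well above the minimum, altered by far more than 2-fold. Such changes always pass the cut, so calls for genes near the minimum were not checked.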

Additional observations from a re-analysis of the deposited data

How the results depend on the processing

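With 1 library per condition, no library could be left out. No paired analysis was possible because either condition had a single library per assay. Of the values that answer the comparison, 44 moved by less than the spread used for them under another setting (counts by a factor of at most 1.5) and 2 moved by more. Some of the 44 could not move. All 5 loci have coordinates of their own, and the expressed members all lie above an FPKM minimum of 5. For mean H3K36me3 cover the spread was a wide binomial interval over the 5 members, which are not replicates. A fall from 80% to 60% in control was counted among the 44. The number of members at least 2-fold higher was 0 when bounds had to be apart as well, since the bounds of Twist1 overlap. The number at least 1.5-fold lower was 1, where 0 were 2-fold lower, and this gene is Gata6. The log2 ratio of Twist1 ranged from 1.05 with a pseudocount of 5 to 1.46 with AngII values scaled by 1.21 to centre the median locus, and under that scaling Gata6 was at -0.46, Prrx1 at -0.22 and Mef2d at 0.53. The median over the members changed sign, to 0.16 when centred, against -0.11 as reported, and was 0 with no FPKM minimum. Over all expressed genes, 580 were 2-fold lower with a pseudocount of 0.1 and 50 with one of 5, against 247 with 1; with 5, 198 were 2-fold higher, against 325. With only regions at or above the list's median score, 3 members had H3K36me3 in control, without Twist1. The share of all expressed genes with such regions was not computed. The authors' bounds hold no replicate variation, and the unknown depth gives no limit for Tcf21 at 0.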
